A study of Homo sapiens with 36 samples.

Results

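The glycolysis genes described here are 10 genes of glucose uptake and breakdown, SLC2A1, HK1, HK2, PFKP, ALDOA, TPI1, PGK1, ENO1, PKM and LDHA, chosen by name and matched to the Ensembl identifiers of the gene count files, which list 62757 genes. They were followed across 24 polyA RNA-seq libraries of HCT-116 cells, a human colorectal cancer line, in 8 groups of 3. KO cells carry a Cas9-made FBXW7-/- genotype that removes the F-box protein FBXW7, a substrate receptor of a ubiquitin ligase. They had been transfected for 48 h with control esiRNA (KO siCT), with esiRNA to HDAC4 (KO siHDAC4), or with control esiRNA together with PROTAC #11 (KO PROTAC11), a degrader that joins a ligand of class IIa histone deacetylases to a ligand of the ubiquitin ligase VHL. One label gives #11 at 1 µM and another at 10 µM. Each arm was left without (UNT, solvent only) or given oxaliplatin (OXPT), a DNA-damaging platinum drug, at 50 µM for the last 24 h. The same 2 states of WT cells were used. Their titles name control esiRNA and their treatment labels esiRNA to HDAC4, so that the esiRNA of the WT libraries is not settled, and the KO line against WT may differ by more than FBXW7 because the line and the genotype cannot be told apart. Nothing in the labels says that replicates were separate cultures, so p-values measure the spread between these libraries.

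Glycolysis converts glucose to pyruvate in the cytosol with a small yield of ATP, and lactate dehydrogenase turns pyruvate into lactate, which restores the NAD+ that the pathway uses. Many tumour cells, colorectal cancer cells among them, run glycolysis at a high rate even with oxygen at hand. Most of its genes are known targets of the hypoxia-inducible factor HIF1A, whose protein VHL marks for degradation, and of MYC.

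The members cover uptake to lactate. SLC2A1 (ENSG00000117394.24, chr1:42925353-42958893 of GRCh38, minus strand, by GENCODE v44 as for all members) encodes the glucose transporter GLUT1. HK1 (ENSG00000156515.25, chr10:69269984-69401884, plus strand) and HK2 (ENSG00000159399.10, chr2:74834127-74893359, plus strand) encode hexokinases, which trap glucose as its 6-phosphate. PFKP (ENSG00000067057.19, chr10:3066333-3137718, plus strand) is the platelet-type phosphofructokinase of the committed step. ALDOA (ENSG00000149925.22, chr16:30064164-30070457, plus strand) splits the hexose, and TPI1 (ENSG00000111669.15, chr12:6867119-6870948, plus strand) interconverts the triose phosphates. PGK1 (ENSG00000102144.15, chrX:77910739-78129295, plus strand) makes the first ATP of the payoff phase, ENO1 (ENSG00000074800.16, chr1:8861000-8879190, minus strand) is an enolase, and PKM (ENSG00000067225.21, chr15:72199029-72231819, minus strand) is the pyruvate kinase that makes the last ATP. LDHA (ENSG00000134333.15, chr11:18394560-18408425, plus strand) encodes the lactate dehydrogenase subunit that ends the series.

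The promoters of the members were searched for the core ACGTG, which HIF factors bind. They were also searched for the E-box CACGTG, which contains that core and is bound by MYC with MAX. In the 250 bases before the transcription start (RefSeq, GRCh38.p14; both strands; all 10 members matched, and where several starts are listed the one nearest to the annotated 5′ end was taken), 4 of 10 members held the core, against 18.5% of 35116 listed promoters. The E-box was found in 1 member, LDHA, and in 6.34% of all promoters. LDHA held the core in 3 places, 2 of them E-boxes, and HK2 and PGK1 held it in 2 places each. ALDOA had it in 1 place, and no core was found in the windows of SLC2A1, HK1, PFKP, TPI1, ENO1 and PKM. The windows of the members with more than 1 place are shown, 5′ to 3′, with the core (CACGT where it reads on the other strand) or E-box in capitals. They describe letters in a window, and no binding was measured. The PGK1 window lies in an intron of a longer annotated PGK1 transcript. The windows of TPI1, ENO1 and PKM lie wholly in annotated exons and that of PFKP inside the gene, because longer transcripts start further upstream, where no search was made. RefSeq lists 7 starts for HK1 and 4 for PFKP, of which only 1 each was used here.
LDHA, chr11:18394313-18394562, plus strand: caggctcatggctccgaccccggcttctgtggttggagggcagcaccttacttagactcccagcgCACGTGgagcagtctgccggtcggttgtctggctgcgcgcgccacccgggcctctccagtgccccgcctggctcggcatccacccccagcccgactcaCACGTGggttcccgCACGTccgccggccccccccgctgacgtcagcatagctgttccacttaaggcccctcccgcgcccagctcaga
HK2, chr2:74833877-74834126, plus strand: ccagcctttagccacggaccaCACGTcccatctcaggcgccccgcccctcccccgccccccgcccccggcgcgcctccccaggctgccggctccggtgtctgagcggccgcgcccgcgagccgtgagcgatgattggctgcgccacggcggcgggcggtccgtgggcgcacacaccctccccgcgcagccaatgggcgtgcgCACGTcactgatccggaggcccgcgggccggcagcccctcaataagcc
PGK1, chrX:78103998-78104247, plus strand: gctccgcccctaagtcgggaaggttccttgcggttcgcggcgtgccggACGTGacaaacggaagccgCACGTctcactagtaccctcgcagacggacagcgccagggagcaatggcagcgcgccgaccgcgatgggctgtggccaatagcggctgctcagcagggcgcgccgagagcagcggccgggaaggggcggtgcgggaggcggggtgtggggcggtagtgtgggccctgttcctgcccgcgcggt

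Depth and identity were checked first. The libraries held between 10725966 and 20527222 gene counts each (median 14510758). The epithelial markers EPCAM, KRT8, KRT18, KRT19 and CDH1 were present in every library, at a counts-per-million value (CPM) of 43.4 or more, while the 3 lymphoid and myeloid and 2 endothelial markers stayed at or below 0.67. Of the fibroblast markers, COL3A1 and DCN stayed at or below 1.44, and COL1A1 lay between 25.1 and 77.6. HDAC4 itself was lower in KO siHDAC4 than in KO siCT libraries by a log2 fold change of -0.82 without and -0.74 with OXPT, which did not pass the test (edgeR adjusted p = 0.561 and 1), and FBXW7 transcript was still counted in KO cells, which is no check of a small Cas9 edit. Among the p53 targets that follow OXPT, CDKN1A was at 1221 CPM in the third WT UNT library against 381 and 288 in the other two, and MDM2 was at 54.5 in the third WT OXPT library against 366 and 353, so that the third WT libraries went partly against their labels.

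The third replicates also stood apart for glycolysis. In KO siCT UNT, KO siHDAC4 UNT and KO siHDAC4 OXPT, all 10 members were highest in replicate 3, at a median of 1.6, 1.56 and 2.01 times the mean of replicates 1 and 2. In KO siCT OXPT and WT OXPT this held for 8 and 9 members. It held for 4 in WT UNT, 6 in KO PROTAC11 UNT and 5 in KO PROTAC11 OXPT, where the median ratio was 0.947, 1.04 and 0.994. Over all 12356 genes tested, the median log2 difference between replicate 3 and the mean of the others lay between -0.0266 and 0.187, while over the members it reached 1.02 in KO siHDAC4 OXPT. The share of gene counts from mitochondrial genes was lower in replicate 3 than in both other replicates of KO siCT UNT, KO siCT OXPT, KO siHDAC4 OXPT, WT UNT and WT OXPT, with 5.65% to 8.26% in these libraries, and not in KO siHDAC4 UNT or KO PROTAC11. Unmapped reads made up 22.3% of the third KO siCT OXPT library. The part of these measures in the results was not tested, and the medians and the wider differences are therefore also given without the third replicates, an alternative added after seeing the data.

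**Figure D1:**
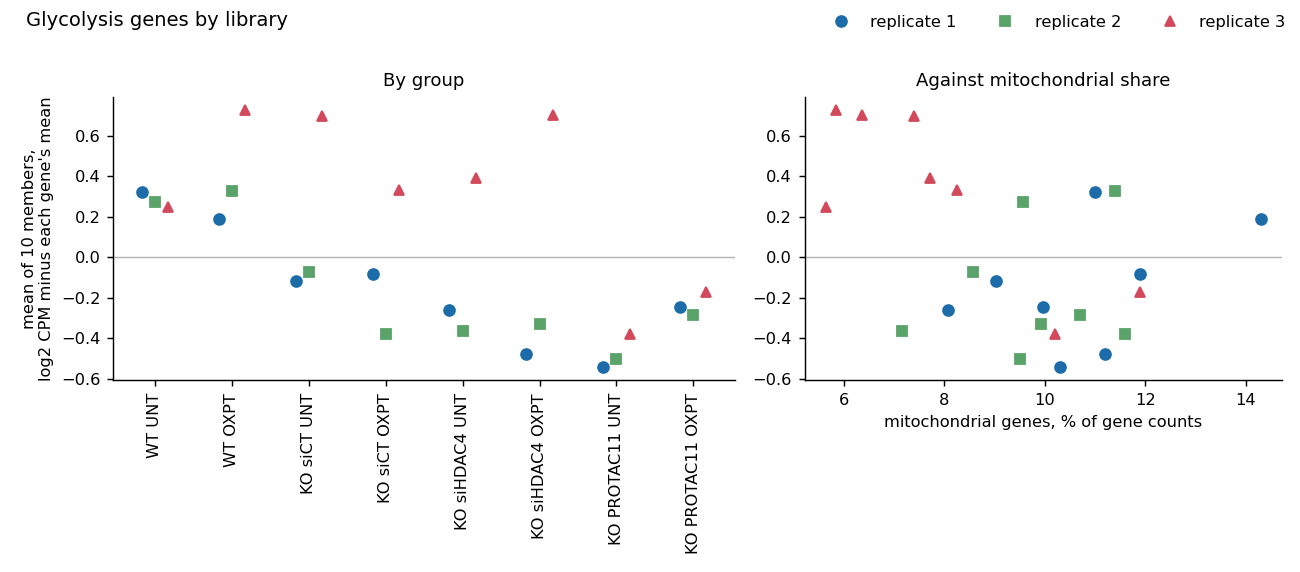
Left, the mean over the 10 glycolysis genes of log2 CPM, each gene centred on its mean over 24 libraries, for every library by group. Right, the same values against the share of gene counts from mitochondrial genes; the third replicates (triangles) outside KO PROTAC11 lie at 0.248 or above, while those of KO PROTAC11 lie at -0.38 and -0.174.

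Scaled to exon length, ENO1 was the most abundant member. ALDOA had the lowest listed value, which for the reason given below cannot be read as its level. The mean over the 24 libraries was 2785.5 TPM (transcripts-per-million) for ENO1 (range 1845.5 to 4013.6) and 1208.7 for TPI1 (699 to 1890.0). It was 792 for PKM, 662 for LDHA, 389 for PGK1, 322 for SLC2A1 and 152 for PFKP. Below these came the hexokinases, HK1 at 63.3 TPM and HK2 at 38.7 TPM. ENO1 was above TPI1, TPI1 above PKM, SLC2A1 above PFKP, and PFKP above HK1 in all 24 libraries. LDHA was above PGK1 and HK2 above ALDOA in 23, and HK1 above HK2 in 21. PKM was above LDHA in 17, and PGK1 above SLC2A1 in 16, so that the order of these neighbours was not fixed. By mean CPM after TMM scaling, the lowest of the 8 groups was KO PROTAC11 UNT for 7 of 10 members, and the highest was WT UNT or WT OXPT for 9. The ratio of the highest to the lowest mean CPM of a group ran from 1.64 for PGK1 to 2.86 for LDHA and 5.03 for HK2. In mean TPM parts of this order differed, with LDHA highest in KO siCT UNT (930.1, against 872.5 in WT OXPT). PGK1 was lowest in KO siCT OXPT by that measure (278.1, against 320.5 in KO PROTAC11 UNT). The lengths are those of all annotated exons merged, which lowers the level of genes with many alternative exons.

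ALDOA cannot be read as an expression level here. It was listed at 9.17 TPM, with 4653 counts in all 24 libraries together, against 1893180 for ENO1. Of its exon bases, 54.2% are shared with other annotated genes, mainly a protein-coding gene on the same strand (ENSG00000285043) that received 370 counts, and reads in shared bases are assigned to no gene by this counting. For the other members the shared part was at most 7.51%. ALDOA is kept in the counts below as listed.

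**Figure D2:**
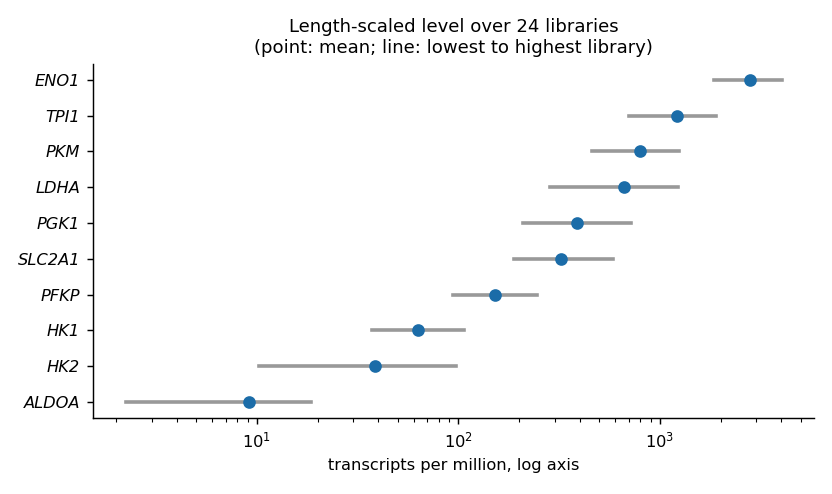
Length-scaled level of each member in TPM on a log axis; the point is the mean over 24 libraries and the line runs from the lowest to the highest library. Levels span from 2785.5 for ENO1 to 9.17 for ALDOA, whose exons are shared with an overlapping gene.

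No member passed the test in any of the 13 comparisons of the design, of which 10 compare groups and 3 compare OXPT responses. A gene was called at an edgeR quasi-likelihood p adjusted over 12356 genes under 0.05 with a change over 1.5-fold, and all 10 members were among the genes tested. DESeq2 on the same counts called 1 member, LDHA, in 1 comparison, KO PROTAC11 against KO siCT without OXPT. Values per library below are CPM after TMM scaling, given for replicates 1, 2 and 3, and they compare a gene between libraries but not genes with each other.

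**Figure D3:**
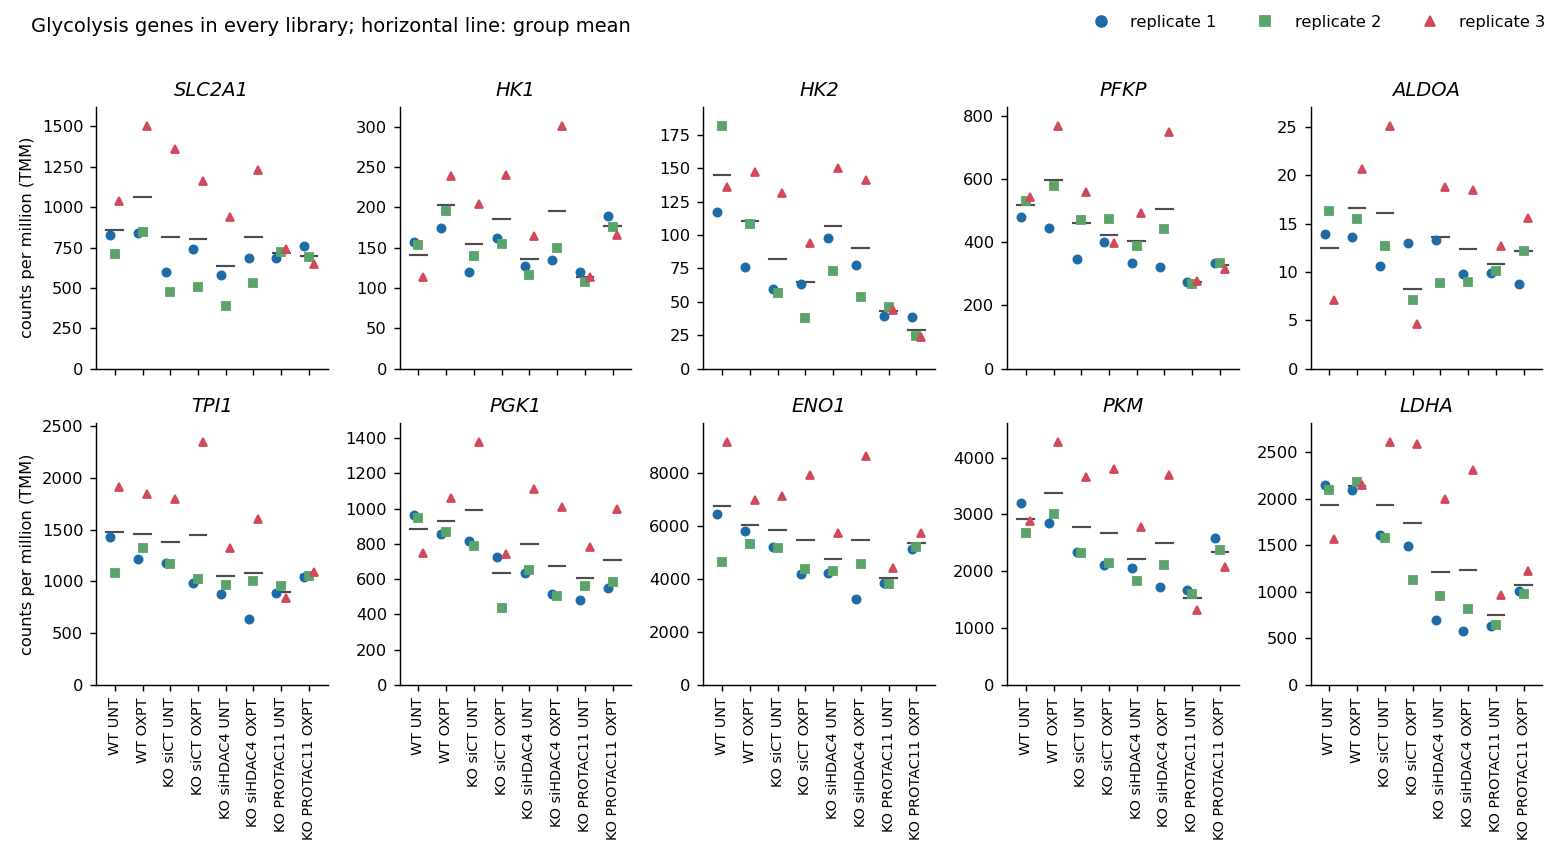
CPM (TMM scaled) of the 10 glycolysis genes in each of the 24 libraries by group, with a separate linear axis from 0 for each gene; colours and shapes mark replicates 1 to 3 and the horizontal line is the group mean. LDHA in KO PROTAC11 UNT libraries lies between 629 and 969, below all KO siCT UNT libraries (1579.8 to 2603).

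The difference that came nearest to a call was that of #11 in KO cells without OXPT, where all 10 members were lower than in KO siCT UNT. The median log2 fold change of the members was -0.67 against 0.00 over all genes tested, and 8 of 10 members did not overlap between the groups, against 31.9% of all genes. At an unadjusted p under 0.05 there were 5 members (HK2, PFKP, PGK1, PKM and LDHA), against 13.8% of all genes, and 0 of 10 after adjustment, against 0.51% of all genes. Without the third replicates 9 of 10 members were lower, with SLC2A1 at 0.40, and the median was -0.43. Same-numbered replicates did not deviate together between KO PROTAC11 and KO siCT libraries (correlations -0.25 to 0.11 without and -0.23 to 0.13 with OXPT). The median ratio of replicate 3 to the others was 1.6 in KO siCT UNT and 1.04 in KO PROTAC11 UNT. An effect of #11 and a difference between these sets of libraries cannot be told apart here.

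LDHA, the enzyme that makes lactate, showed the widest gap. It was at 1605, 1579.8 and 2603 CPM in KO siCT UNT and at 629, 646 and 969 in KO PROTAC11 UNT. Every library with #11 lay below every library without it, and the replicate 3 value was the highest in both groups. In bulk RNA fewer expressing cells and less RNA per cell cannot be told apart. The log2 fold change was -1.37 ± 0.43 (SE, n = 3 per group; 95% interval -2.27 to -0.46; adjusted p = 0.137 by edgeR). It was called, among others, by DESeq2 (-1.38, adjusted p = 0.0392), with only the KO siCT and KO PROTAC11 UNT groups in the fit (-1.36, adjusted p = 0.0247), without a filter on low counts (-1.43, adjusted p = 1.16e-05) and without the third replicates (-1.31, adjusted p = 0.00107). Over all 34 alternatives the value stayed between -1.59 and -1.09 and was called in 5, with adjusted p from 1.16e-05 to 0.336.

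PKM, the enzyme before it, was at 2332, 2329 and 3665 CPM in KO siCT UNT and 1669.9, 1599.9 and 1325 in KO PROTAC11 UNT. Replicate 3 was the highest without #11 and the lowest with it, and the groups did not overlap. The log2 fold change was -0.86 ± 0.29 (SE, edgeR adjusted p = 0.166), and -0.50 without the third replicates (adjusted p = 0.0488), which is under the 1.5-fold minimum. PFKP was at 346, 471 and 559 without #11 and 274, 268 and 277 with it, a difference of -0.75 ± 0.25 (SE, edgeR adjusted p = 0.166) and -0.58 without the third replicates. PGK1 was at 817, 786 and 1376 without and 479.7, 558 and 779.8 with #11, with a difference of -0.71 ± 0.33 (SE, edgeR adjusted p = 0.339) and a call without the third replicates (-0.61, adjusted p = 0.0426). That setting called 1816 of 12507 genes. The #11 libraries of PFKP lay close together, while the highest one of PGK1 came close to the lowest KO siCT value.

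HK2, the inducible hexokinase, was at 59.2, 56.5 and 131 CPM in KO siCT UNT and at 39.2, 46.4 and 43.6 in KO PROTAC11 UNT. Its log2 fold change of -0.93 ± 0.40 (SE, edgeR adjusted p = 0.288) shrank to -0.42 without the third replicates. TPI1 was at 1178, 1165 and 1797 without and 892, 955 and 837 with #11, a difference of -0.63 (edgeR adjusted p = 0.431) and -0.33 without the third replicates. ENO1 was at 5206, 5176 and 7127 against 3830.0, 3822 and 4425, a difference of -0.54 (edgeR adjusted p = 0.491) and -0.43 without them. HK1 was at 119.8, 140.2 and 204 against 119.5, 107 and 113, so that the groups were barely separated, and differed by -0.45 (edgeR adjusted p = 0.496), or -0.19 without them. SLC2A1 behaved differently by value, at 601, 477 and 1359.5 without and 688, 719.7 and 738 with #11. Its #11 libraries lay inside the wide KO siCT range, and the difference of -0.18 (edgeR adjusted p = 0.895) turned to 0.40 without the third replicates. ALDOA (-0.57, and -0.21 without the third replicates) overlapped between the groups as well.

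**Figure D4:**
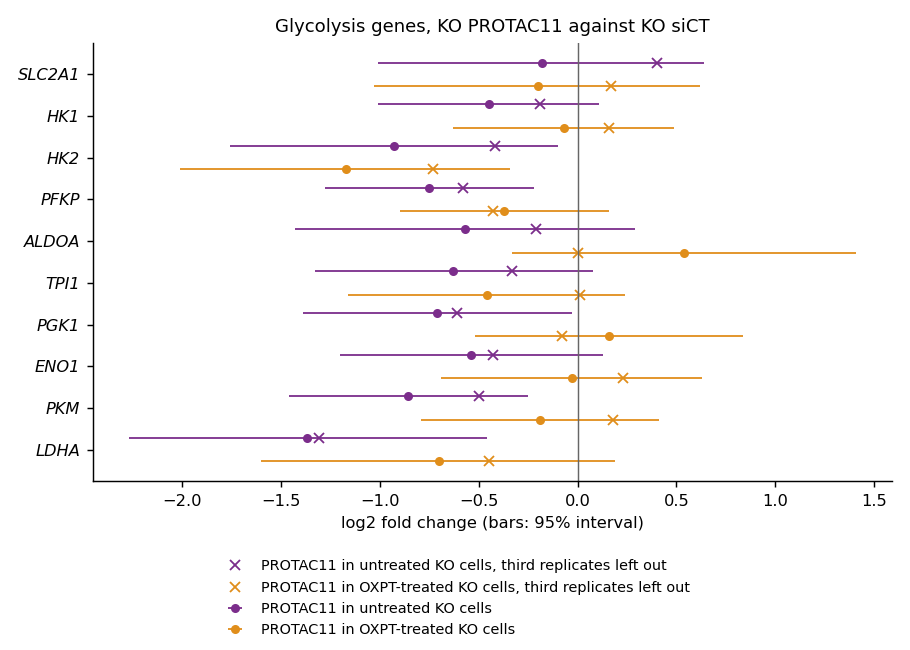
Log2 fold change of each glycolysis gene in KO PROTAC11 against KO siCT libraries without and with OXPT (points, with 95% intervals from the edgeR fit of 24 libraries), and the same values with the third replicates left out (crosses). Without OXPT all 10 points lie below 0, LDHA lowest at -1.37, and with OXPT HK2 lies lowest at -1.17.

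With OXPT on both sides the median of the members was -0.20, 8 of 10 members were lower in KO PROTAC11 OXPT than in KO siCT OXPT, and 0 of 10 were called, against 0.121% of all genes. HK2 alone had an unadjusted p under 0.05, a rule that 10.2% of all genes met. It was at 63.4, 38.0 and 94.0 CPM in KO siCT OXPT and 38.4, 24.5 and 23.6 in KO PROTAC11 OXPT, and the groups overlapped narrowly. The difference was -1.17 ± 0.40 (SE, edgeR adjusted p = 0.303), was called without a filter on low counts (-1.15, adjusted p = 0.00937), and was -0.73 without the third replicates. LDHA was at 1494, 1129 and 2588 against 1006.6, 976.7 and 1222, a difference of -0.70 ± 0.43 (SE, edgeR adjusted p = 0.613) and -0.45 without the third replicates. Without the third replicates 5 members were lower and 5 higher, with a median of 0.00.

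OXPT moved no member past the test in any background, although 11.3% of all genes were called in KO siCT, 10.7% in WT, 12% in KO siHDAC4 and 9.51% in KO PROTAC11 cells. The median of the members was -0.10 in KO siCT, 0.17 in WT, 0.10 in KO siHDAC4 and 0.25 in KO PROTAC11 cells. Without the third replicates it was -0.19, 0.02, -0.14 and 0.19 in the same order. In WT and KO siHDAC4 cells 0 members had an unadjusted p under 0.05, against 24.7% and 25.4% of all genes. The enolase ENO1 was at 5206, 5176 and 7127 CPM in KO siCT UNT and 4164, 4355 and 7911 in KO siCT OXPT, a log2 fold change of -0.09 (95% interval -0.75 to 0.57; edgeR adjusted p = 0.891). PKM gave -0.05 (-0.65 to 0.55) in the same cells and 0.21 (-0.39 to 0.81) in WT cells, where it was at 3211, 2678 and 2894 without and 2845, 3016 and 4270.4 with OXPT. LDHA in WT cells was at 2144, 2094 and 1562 without and 2087, 2182 and 2141 with OXPT, which is 0.14 (-0.75 to 1.03). These groups overlapped, and changes within the intervals were not detectable here.

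In KO siCT cells 1 member, ALDOA, had an unadjusted p under 0.05 (-0.95, edgeR adjusted p = 0.151), against 26.1% of all genes. At 10.6, 12.7 and 25.1 CPM without and 13.0, 7.08 and 4.64 with OXPT, it rested on few counts, was called when KO siCT OXPT replicate 1 was left out (-1.46, edgeR adjusted p = 0.0428), and was at -0.19 without the third replicates. PGK1 was at 817, 786 and 1376 without and 727, 436 and 743 with OXPT, so that these groups did not overlap. This held for 1 of 10 members there, against 30.1% of all genes. The PGK1 difference of -0.64 ± 0.33 (SE, edgeR adjusted p = 0.219) was the widest among the well counted members in these cells. It was -0.46 without the third replicates.

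In KO PROTAC11 cells 7 of 10 members did not overlap between UNT and OXPT, against 42.5% of all genes, and 2 members, HK1 and PKM, had an unadjusted p under 0.05, against 23.5%. HK1 was at 119.5, 107 and 113 CPM without and 189, 175 and 166 with OXPT. Its difference of 0.64 ± 0.27 (SE, edgeR adjusted p = 0.148) was 0.64 without the third replicates too, and was then called (adjusted p = 0.00603), as it was with only those 2 groups in the fit (adjusted p = 0.00727). PKM was at 1669.9, 1599.9 and 1325 CPM without and 2577, 2377 and 2081 with OXPT, with a log2 fold change of 0.61 ± 0.29 (SE, edgeR adjusted p = 0.203), called with only those 2 groups in the fit (0.62, adjusted p = 0.00844). LDHA was at 629, 646 and 969 without and 1006.6, 976.7 and 1222 with OXPT, at 0.51 ± 0.43 (SE, edgeR adjusted p = 0.51), and was called without the third replicates (0.59, adjusted p = 0.0396). HK2 went the other way, from 39.2, 46.4 and 43.6 to 38.4, 24.5 and 23.6 CPM (-0.58, edgeR adjusted p = 0.414).

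**Figure D5:**
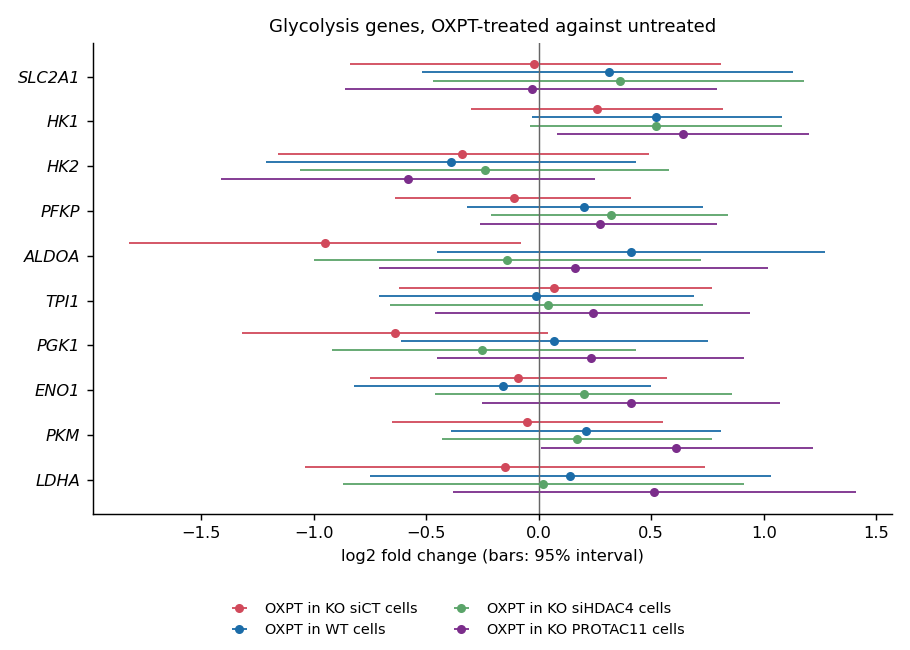
Log2 fold change of each glycolysis gene with OXPT against UNT in KO siCT, WT, KO siHDAC4 and KO PROTAC11 cells (points, with 95% intervals from the edgeR fit of 24 libraries). Intervals that leave out 0 are those of HK1 (0.64) and PKM (0.61) in KO PROTAC11 cells and of ALDOA (-0.95) in KO siCT cells.

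The OXPT responses themselves were compared with interaction terms. For KO PROTAC11 minus KO siCT the response was higher for 8 of 10 members, with a median of 0.44 (0.34 without the third replicates), and PGK1 at 0.87 ± 0.46 (SE, edgeR adjusted p = 0.768), LDHA at 0.67 and PKM at 0.66. None was called, against 0% of all genes, and at an unadjusted p under 0.05 there were 0 members, against 6.98%. KO PROTAC11 UNT and KO siCT UNT enter both this term and the comparison of #11 without OXPT, so that the higher response and the lower level without OXPT share libraries. For KO siHDAC4 minus KO siCT the median was 0.28 (0.04 without the third replicates) and 0 members were called or had an unadjusted p under 0.05, against 0% and 0.154% of all genes. For KO siCT minus WT it was -0.28 (-0.14 without the third replicates), and only ALDOA had an unadjusted p under 0.05 (-1.36, edgeR adjusted p = 1), against 1.63% of all genes, with 0% of genes called.

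HDAC4 silencing gave no call among the members, against 0.00809% of all genes without OXPT and 0% with it, and 0 members had an unadjusted p under 0.05 in either state, against 3.19% and 3.08%. Without OXPT 9 of 10 members were lower, with a median of -0.30 (-0.23 without the third replicates). LDHA was again the lowest, at 695, 949.6 and 1989.7 CPM in KO siHDAC4 UNT against 1605, 1579.8 and 2603 in KO siCT UNT, a difference of -0.67 ± 0.43 (SE, edgeR adjusted p = 1). The groups overlapped. Within each of the 3 same-numbered pairs LDHA was lower in silenced cells, and so were SLC2A1, PFKP, TPI1, PGK1, ENO1 and PKM. HK2 was higher in all 3 pairs, and HK1 and ALDOA were mixed. The share of all genes that keep their direction over 3 pairs was not counted. Without the third replicates the LDHA difference was -0.96 (edgeR adjusted p = 0.0501). With OXPT LDHA was at 577, 814 and 2305 against 1494, 1129 and 2588, at -0.50 ± 0.43 (SE, edgeR adjusted p = 1) and -0.92 without the third replicates (adjusted p = 0.104). There LDHA, TPI1 and PKM were lower and HK2 was higher in all 3 pairs, and the other members were mixed. HK2 was the one member that lay higher in silenced cells without OXPT, at 0.38, and it was at 0.48 with OXPT, with edgeR adjusted p = 1 for both. With OXPT 6 of 10 members lay higher, with a median of 0.05, while without the third replicates 1 lay higher and 9 lower, with a median of -0.16. The comparisons of silencing and of #11 use the same KO siCT libraries.

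Against WT, KO siCT cells had lower values for 7 of 10 members without OXPT and for all 10 with it, with medians of -0.08 and -0.37 (-0.31 and -0.45 without the third replicates, where all 10 were lower in both states). None was called, against 0.291% and 0.138% of all genes, and without OXPT 0 members had an unadjusted p under 0.05, against 5.74%. With OXPT 1 member, ALDOA, did (-0.99, edgeR adjusted p = 0.841), against 5.4% of all genes. HK2 showed the widest difference among well counted members. It was at 117, 181 and 136 CPM in WT UNT against 59.2, 56.5 and 131 in KO siCT UNT, a difference of -0.82 ± 0.40 (SE, edgeR adjusted p = 0.877), and -1.36 without the third replicates (adjusted p = 0.0863). With OXPT it was at 75.9, 109 and 147 against 63.4, 38.0 and 94.0, at -0.77 ± 0.40 (SE, edgeR adjusted p = 0.956). Replicates 1 and 2 were lower in KO than in WT cells in both states, and replicate 3 of KO siCT UNT reached the WT range. The WT labels' open esiRNA and the third WT libraries bear on these values.

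Other genes of the pathway, from lists written with earlier results of these data known, added few calls. Of 20 further glycolysis enzymes and transporters, 13 had enough counts to be tested. With OXPT, SLC2A3, the transporter GLUT3, was the one called, and it rose from 2.25, 1.99 and 6.07 to 7.85, 5.06 and 18.0 CPM in KO siCT cells (1.56 ± 0.51, SE; edgeR adjusted p = 0.0489) and by 1.79 in KO siHDAC4 cells (adjusted p = 0.0205), with 1.17 in WT and -0.07 in KO PROTAC11 cells not called. The KO siCT call held in 14 of 33 alternatives, with values from 0.92, without KO siCT OXPT replicate 3, to 2.26, and the KO siHDAC4 call was lost without KO siHDAC4 OXPT replicate 3 or KO siHDAC4 UNT replicate 1 or 2. SLC2A3 was also lower in KO siCT than in WT cells, by -3.03 without (adjusted p = 0.00759) and -2.64 with OXPT (adjusted p = 0.0303 in edgeR), and shares sequence with its copy SLC2A14, so that its counts are uncertain. Without OXPT that call held in 30 of 33 alternatives and was lost, among others, when KO siCT UNT replicate 1 or 2 was left out. With OXPT it held in 28 of 33 and was lost without KO siCT OXPT replicate 1 or 2 or WT OXPT replicate 1 or 2. It was also lost there with only the 2 groups in the fit, which called 0 genes.

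With #11 in KO cells without OXPT, 10 of these 13 genes were lower, with a median of -0.47, and 1 was called, against 0.51% of all genes. Without the third replicates the median was -0.22 and 4 were called, where 1816 of 12507 genes were. The gene called with all libraries, singled out after its values were seen, was PGAM1, the phosphoglycerate mutase that acts between PGK1 and ENO1. It was at 582, 535 and 860.4 CPM in KO siCT UNT and 228, 267 and 232 in KO PROTAC11 UNT, and the groups lay far apart. The difference of -1.44 ± 0.29 (SE, edgeR adjusted p = 0.039) was called in 22 of 34 alternatives, with values from -1.58 to -1.16, and lost its call when any 1 of these 6 libraries was left out. PGAM1 has near-identical processed copies elsewhere in the genome, so that its count is uncertain.

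Of 15 genes that control glycolysis or carry lactate out, 12 were tested, and with #11 in KO cells without OXPT 5 lay higher and 7 lower. The median was -0.29 (-0.05 without the third replicates). Of the 12 genes 0 were called, against 0.51% of all genes, and 3 without the third replicates, where 1816 of 12507 genes were. TIGAR, a p53 target that lowers fructose-2,6-bisphosphate and so slows glycolysis, rose with OXPT in KO siCT cells from 6.83, 6.82 and 8.51 to 15.1, 16.9 and 22.0 CPM (1.28 ± 0.31, SE; edgeR adjusted p = 0.00943). It rose by 1.04 in KO siHDAC4 (edgeR adjusted p = 0.0299) and 1.19 in KO PROTAC11 cells (adjusted p = 0.0171), and was at 0.31 in WT cells (adjusted p = 0.588), where replicate 3 with OXPT was at 4.75 against 13.1 and 13.0. The KO siCT call was lost without KO siCT UNT replicate 1 (1.21, edgeR adjusted p = 0.0523). That in KO siHDAC4 cells held in 27 of 34 alternatives and was lost, among others, without any 1 of their libraries but OXPT replicate 3. That in KO PROTAC11 cells was lost without UNT replicate 2 or OXPT replicate 1. SLC16A7, the monocarboxylate carrier MCT2, fell by 2.11 on the log2 scale in WT cells (edgeR adjusted p = 0.0457) from 3.13, 8.82 and 1.09 to 1.46, 1.47 and 0.0731 CPM, a call that held in 12 of 32 alternatives, with -1.07 without WT UNT replicate 2. Among the WT libraries it was lost without any 1 but UNT replicate 3.

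All 7 pentose phosphate pathway genes and all 6 regulators were tested, and none was called with OXPT or with #11. Of all genes, 9.51% to 12% were called with OXPT, while with #11 it was 0.51% without and 0.121% with OXPT. The pentose phosphate genes had a median of -0.10 with OXPT in KO siCT cells (-0.25 without the third replicates) and of -0.24 with #11 in KO cells without OXPT (-0.11), and 0 were called in either case without the third replicates. The regulators had medians of 0.36 (0.40) and 0.23 (0.29). Without the third replicates 1 of the regulators was called with OXPT in KO siCT and 1 in KO PROTAC11 cells, where 2178 and 2847 of 12507 genes were. In that setting 2 of them were called with #11 without and 2 with OXPT, where 1816 and 1438 of 12507 genes were. Among the regulators MYC, singled out after its values were seen, was lower in KO siCT than in WT cells, by -1.36 ± 0.21 without OXPT (SE, edgeR adjusted p = 0.00237) and -1.26 with it (adjusted p = 0.00784). It was at 94.9, 139 and 103 CPM in KO siCT UNT against 231, 317 and 315 in WT UNT. With 2 groups alone in the fit both calls were lost, as was that with OXPT when KO siCT OXPT replicate 3 was left out (-1.14).

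Of 15 HIF targets outside glycolysis, all tested, 11 were lower with #11 in KO cells without OXPT. The median was -0.78 (-0.69 without the third replicates) against 0.00 for all genes. Of these targets 0 were called, against 0.51% of all genes, and 6 without the third replicates, where 1816 of 12507 genes were. Among the HIF targets, and chosen after their values were seen, ANKRD37 was at -1.78, CA9 at -1.63 and EGLN1 at -1.30, with edgeR adjusted p of 0.212, 0.414 and 0.236, while VEGFA (0.87, edgeR adjusted p = 0.263) lay higher. With OXPT on both sides 11 targets were lower with #11 and 4 higher, at a median of -0.25 (-0.20 without the third replicates). Lower values were also found in KO siCT against WT cells, for 10 targets without OXPT and 12 with it, while 5 and 3 were higher. Their medians were -0.26 and -0.25 (-0.54 and -0.58 without the third replicates).

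The genes whose levels over the 24 libraries were most like the mean of the 10 members were PFKFB4 (Pearson r = 0.927), GPI (0.895), KIAA2013 (0.881), ANKRD37 (0.878) and INSIG2 (0.854), out of 12346 genes. PFKFB4 makes fructose-2,6-bisphosphate and GPI is the glucose phosphate isomerase, the step between hexokinase and phosphofructokinase. Among the members, PKM (0.90) and LDHA (0.87) followed the mean of the other 9 most closely and ALDOA (0.42) least. These correlations describe 24 libraries that share culture, depth and replicate structure, the third replicates in particular.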

How the data were processed

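Per the submitters' notes, the authors trimmed reads with Trimmomatic 0.39 and aligned them to hg38 with STAR 2.7.11a, and the deposited counts are whole reads per gene in 3 strand columns. The annotation behind these counts is not given in the sources used here (an Ensembl release is named only for the separate salmon analysis of the study), but all 10 members matched GENCODE v44 identifiers. Reads on the reverse strand were 1.004 to 1.016 times those on the forward strand, so unstranded counts were used and reads of overlapping antisense genes cannot be separated. Reads with no gene (unmapped, multimapping, ambiguous, no feature) made up 26.0% to 41.2% per library and were left out.

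Genes with a mean count of at least 64 in 1 group or more were fitted in 1 edgeR 4.0.16 quasi-likelihood model (R 4.3.3, TMM) of 24 libraries (calls: fold change above 1.5, Benjamini-Hochberg p below 0.05). The 3 OXPT responses were compared by interaction terms. Intervals are 95% from the fit. Same-numbered replicates deviated together in the OXPT, silencing and KO against WT comparisons (correlations 0.11 to 0.79), the only source of their pairing, and not in those of #11. In all, 34 alternatives were run, 24 of them leaving out 1 library, with DESeq2 1.42.0 among the rest. The model was tested on simulated counts. All members are named, other genes by fixed lists (those called with OXPT in KO siCT or WT cells) and by likeness to the members' mean. Members and lists were chosen with earlier results of these data known. A further 12 WT libraries with opposed labels on OXPT were not used. One gene of the lists is not reported here.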

Additional observations from a re-analysis of the deposited data

How the results depend on the processing

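Of 130 results (10 members in 13 comparisons), 0 were called and 10 were called under at least 1 alternative. Leaving out 1 library at a time gave 0 to 1 called members for OXPT in KO siCT cells (ALDOA without KO siCT OXPT replicate 1), and 0 in the other comparisons. For OXPT in KO PROTAC11 cells, 2 members were called with only the groups compared in the fit (HK1 and PKM; 2636 of 11854 genes) and 2 without the third replicates (HK1 and LDHA; 2847 of 12507 genes), both near the share of all genes. For #11 without OXPT, 3 were called without a count filter (HK2, PKM and LDHA; 480 of 42865 genes), 3 with only the groups compared (PFKP, PKM and LDHA; 566 of 11838), 2 without the third replicates (PGK1 and LDHA; 1816 of 12507) and 1 by DESeq2 (LDHA; 409 of 12356). With the replicate block it was 1 (LDHA, -1.36, adjusted p = 0.0309 by edgeR; 397 of 12356), a comparison in which the numbers were not shown to pair libraries (correlations -0.25 to 0.11), and the block changed no other member's call. For #11 with OXPT, 1 was called without a count filter (HK2; 367 of 42865). The difference of the ALDOA response to OXPT, KO siHDAC4 minus KO siCT, turned from 0.81 to -0.05 without the third replicates. The cause was not tested in any of these. The remaining alternatives kept the count of called members at 0.

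Over all genes tested, the number called ran from 553 to 2178 for OXPT in KO siCT, 84 to 2614 in WT, 807 to 2250 in KO siHDAC4 and 555 to 2847 in KO PROTAC11 cells. It ran from 0 to 1816 for #11 without and 0 to 1438 with OXPT, 0 to 47 and 0 to 9 for silencing, 1 to 322 and 0 to 91 for KO against WT, and 0 to 24, 0 to 0 and 0 to 244 for the differences of the response. With 3 libraries a group, ALDOA's low counts and the spread of the third replicates limit what can be detected.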
